A study of Homo sapiens with 12 samples.

Results

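The comparison described here set cells that received hypoxia and zotatifin together against cells that received neither. It was made in 22Rv1, an established human prostate cancer cell line. Cells were seeded as triplicates in multiwell plates and kept overnight in normoxia or at 1% oxygen. The joint group was in the low oxygen set and received 10 nM zotatifin, starting 24 hours after seeding and lasting 24 hours. The untreated group was in the normoxic set and is titled vehicle, while its treatment tag reads none, as does that of the hypoxia vehicle group. The other groups of the series, hypoxia with vehicle and normoxia with the same dose of zotatifin, supplied the single changes. Each of the 4 groups had 3 libraries, so the comparison used 6 of the 12 libraries. The members were all lines of the count table that passed a filter on low counts, 17993 of 60230 lines (42% of the 42842 lines with a value above 0). The table holds values with no gene names. Lines are therefore counted, described by their values, or, for the 2 leading rises and 2 leading falls, given by their data line number counted from the first.

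Cells short of oxygen stabilise the hypoxia-inducible transcription factors, which switch on genes of glycolysis, pH control and vessel growth. eIF4A is the RNA helicase that unwinds the leaders of messenger RNAs so that ribosomes can load, and zotatifin is a small molecule that clamps it onto RNA. The drug acts first on translation, and RNA levels can move afterwards through changed RNA stability, transcription factors and stress responses. RNA counts show the later layer only. A joint change equal to the sum of the single log2 changes means that the fold changes multiply, and this is what additive means below.

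The column totals were 15642920 to 16474350 estimated counts in the normoxia vehicle libraries and 10394201 to 15450274 in the joint libraries. Pearson's r of log2 CPM (counts scaled to a common library size) across the tested lines was 0.983 to 0.986 within normoxia vehicle, 0.984 to 0.986 within the joint group and 0.931 to 0.938 between them. Pairs of normoxia vehicle libraries differed by 4.92 to 14.4 in chi-square per degree of freedom and pairs of joint libraries by 3.08 to 3.36, so no pair agreed within sampling noise. Lines too scarce to be tested held 0.125% ± 0.006 of the counts in normoxia vehicle and 0.242% ± 0.024 in the joint group (SD, n = 3). With hypoxia alone they held 0.244% ± 0.045 and with zotatifin alone 0.126% ± 0.004, so the larger share was not particular to the joint group. The 3 joint libraries lay above the 3 vehicle libraries in that share (exact two-sided permutation p = 0.1, the smallest that 20 splits allow, adjusted p = 0.1 over 3 such tests). The tests of column totals and of lines above 0 gave the same p. Lines above 0 numbered 30224 ± 1711 in the joint group and 24734 ± 686 in vehicle (SD, n = 3), though the joint totals were smaller. They numbered 29079 ± 1801 with hypoxia alone and 25209 ± 196 with zotatifin alone. Low oxygen and normoxia were applied to different sets of cells. The labels do not show whether each replicate was exposed separately, so oxygen and whatever else separated the sets cannot be told apart. The lines carry no names, so the identity of the cells could not be checked against marker genes. CPM is relative to each library's total, so a change in RNA per cell is not visible.

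The first question was how far cells under both treatments differed from untreated cells. They differed in 11407 of the 17993 tested lines, which is 63.4% (edgeR quasi-likelihood test, Benjamini-Hochberg adjusted p under 0.05). Of these lines 5620 were higher (31.2% of those tested) and 5787 were lower (32.2%). Hypoxia alone changed 42.6% of the same lines (16.7% higher, 25.9% lower) and zotatifin alone 53% (25.1% higher, 27.9% lower), each against the same vehicle libraries. The median size of a called joint change was 0.71 on the log2 scale. Over all tested lines large changes were more often upward: 2085 lines rose 2-fold or more and 1546 fell 2-fold or more, and at 8-fold the counts were 214 and 61. At 16-fold they were 85 higher and 14 lower. At 2-fold this excess lay mostly in scarce lines, and the counts at 8-fold and 16-fold were not split by abundance. Under 4 CPM, as the mean of the 4 groups, 1234 lines rose and 467 fell 2-fold or more. Such lines could pass the count filter through the group in which they were high. From 4 to 16 CPM 388 rose and 335 fell, while at 16 CPM or more 463 rose and 744 fell (566 and 607 under upper quartile scaling). The joint and the vehicle libraries were fully separated in 66.7% of tested lines, 33.1% with the joint libraries above and 33.6% with them below.

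**Figure D1:**
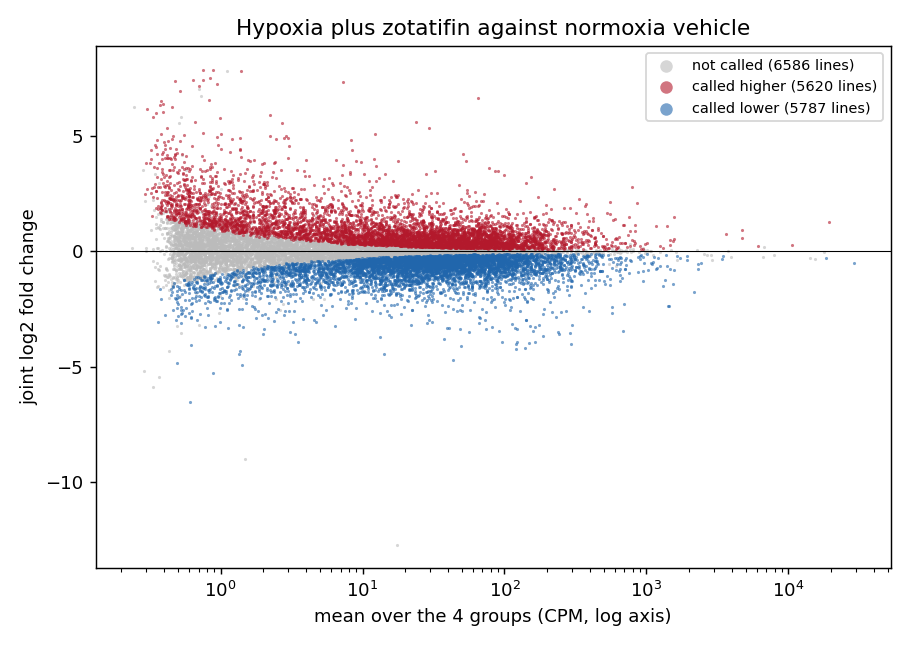
Joint log2 fold change (vertical axis) of each tested line against its mean over the 4 groups in CPM (horizontal log axis). Red points are the 5620 lines called higher, blue points the 5787 called lower and grey points the 6586 not called, and the red points under 4 CPM outnumber the blue.

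Upward and downward calls lay at different abundances. Under 1 CPM, as the mean of the 4 groups, 608 lines were higher and 172 lower, and the median joint change of all lines there was 0.43. From 1 to 4 CPM 895 were higher and 515 lower. From 4 to 16 CPM the numbers were equal, 1168 each. From 16 to 64 CPM 1760 were higher and 2420 lower, and from 64 to 256 CPM 1013 were higher and 1287 lower. At 256 CPM or more 401 of 497 lines were called, 176 higher and 225 lower. Scarce lines could pass the count filter through the group in which they were high, which favours large changes there. Under 1 CPM 606 of the 608 rises and 171 of the 172 falls were at least 2-fold. Rises outnumbered falls in the scarce lines under each scaling tried, but the part of the filter in this was not tested. Above 16 CPM falls outnumbered rises in each range under relative log expression scaling and without the 20 most abundant lines as well. From 16 to 64 CPM these gave 1809 higher to 2363 lower and 1758 to 2423. Upper quartile scaling evened the balance. It was then 2041 higher to 2135 lower from 16 to 64 CPM, 1177 to 1155 from 64 to 256 CPM and 212 to 205 beyond. The excess under 4 CPM went together with the larger share of counts in untested lines given above, and the part of that in these calls was not tested. In 19 of the lines called higher all 3 vehicle libraries had 0 counts. The most abundant of them in the joint group stood at 2.15, 2.08 and 2.00 CPM. That is at least 32.3-fold higher than a floor of 3 counts over the vehicle group. Only 1 line called lower was at 0 in all 3 joint libraries. A line at 0 in a whole group could pass the count filter only through the other groups, so these lines are a description.

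Single lines were ranked by joint change among those that were called, reached 5 CPM in the group with the larger mean and had fully separated libraries. Line 365 was the leading rise. It stood at 2.64, 1.56 and 2.11 CPM in the vehicle normoxia libraries and at 226, 195 and 215 CPM in the joint libraries. Every joint library was far above every other library of the series, and the single treatments lay between. Hypoxia alone gave 14.4, 14.1 and 13.7 CPM and zotatifin alone 33.7, 30.3 and 32.7 CPM. The joint log2 fold change was 6.65 (SE 0.10, edgeR adjusted p = 4.7e-31), about 100.3-fold. The single changes were 2.74 and 3.93, and their sum of 6.67 differed from the joint change by -0.02 (SE 0.14, 95% interval -0.30 to 0.26). The line with the largest rise was thus additive within the interval.

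Line 8470 was next and had another shape. It stood at 0.40, 0.97 and 0.62 CPM in vehicle normoxia and at 33.1, 33.9 and 33.4 CPM in the joint group (log2 fold change 5.63, SE 0.20, edgeR adjusted p = 2.81e-16). With hypoxia alone it stood higher still, at 62.3, 56.4 and 61.7 CPM, and with zotatifin alone at 0.21, 0.00 and 0.58 CPM. Its joint level therefore lay below that of hypoxia alone and above that of the other groups. The departure from the sum was 0.46 with an interval from -0.66 to 1.59, too wide to tell an additive from a 2-fold stronger response.

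The 8 further rises of the leading 10 had joint log2 fold changes of 5.38 to 4.56. They started from 0.17 to 2.08 CPM in vehicle normoxia and reached 5.32 to 86.8 CPM in the joint group. One of them departed from the sum. It stood at 1.72, 2.60 and 1.93 CPM in vehicle cells, at 22.6, 23.7 and 26.7 with hypoxia alone, at 4.01, 3.41 and 3.53 with zotatifin alone and at 88.9, 85.7 and 85.8 CPM with both. The sum of its single changes was 4.34 and its joint change 5.38, a departure of 1.03 (SE 0.20, edgeR adjusted p = 0.000226). Another, the ninth, had 30 vehicle counts, and all of them lay in replicate 1 at 1.98 CPM, with 0 in replicates 2 and 3, against 16.3, 19.4 and 20.3 CPM in the joint group. Its joint change was 4.83 (SE 0.71), and it was 4.22 without normoxia vehicle replicate 3, while without replicate 1 the fitted value of 11.02 was no bound. Of the other rises among the 10, 5 rested on 8 to 16 vehicle counts in all, so their size is loosely set. Without normoxia vehicle replicate 1 the fifth moved from 5.02 to 6.12, and without replicate 3 the eighth moved from 4.88 to 5.63, and both still passed. In 6 of the 10 leading rises the 3 joint libraries lay above all 9 others, against 12.1% of all tested lines. The ranking by joint change favours this.

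The falls were more alike. Line 54422 led, from 128, 112 and 108 CPM in vehicle normoxia to 3.90, 5.41 and 3.43 CPM in the joint group. All joint libraries lay below all others, which were 19.6, 19.5 and 24.4 CPM with hypoxia alone and 33.0, 36.4 and 30.7 CPM with zotatifin alone. The joint log2 fold change was -4.73 (SE 0.12, edgeR adjusted p = 4.94e-18). The sum of the single changes was -4.26, and the departure of -0.48 did not pass (SE 0.18, edgeR adjusted p = 0.0726).

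Of the 10 leading falls, 9 were lower in all 3 treated groups and had nearly the same profile. Their vehicle levels ran from 116 to 757 CPM and their joint levels from 4.25 to 46.2 CPM, which left 3.67% to 6.56% of the vehicle level. Their changes with hypoxia alone were -2.62 to -1.99 and with zotatifin alone -1.97 to -1.47, both against the same vehicle libraries. The sums ran from -4.50 to -3.63 and the joint changes from -4.73 to -3.92. In 7 of the 9 the 95% interval of the departure lay within 1.5-fold, and in 1 of those 7 the small departure passed (-0.34, SE 0.08, edgeR adjusted p = 0.00176). The most abundant of them went from 868, 708 and 695 CPM in vehicle cells to 166, 176 and 182 with hypoxia, 191, 213 and 174 with zotatifin and 47.4, 44.6 and 46.5 CPM with both. Its departure from the sum was 0.05 (SE 0.15), so its fold changes multiplied within the error. In all 10 leading falls the joint libraries lay below all 9 others, against 13.7% of all tested lines. The ranking by joint change favours this too.

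Line 2144, the second largest fall, differed from these 9. It stood at 27.5, 23.0 and 21.2 CPM in vehicle normoxia, at 30.4, 29.9 and 27.7 CPM with hypoxia alone and at 2.36, 2.36 and 2.18 CPM with zotatifin alone. The joint libraries held 1.28, 0.82 and 1.24 CPM, below all others (joint log2 fold change -4.44, SE 0.16, edgeR adjusted p = 5.65e-21). Here the single changes had opposite signs, 0.30 and -3.37, and the joint fall was larger than their sum of -3.07. The departure was -1.37 (SE 0.26, 95% interval -1.89 to -0.84, edgeR adjusted p = 0.00019).

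**Figure D2:**
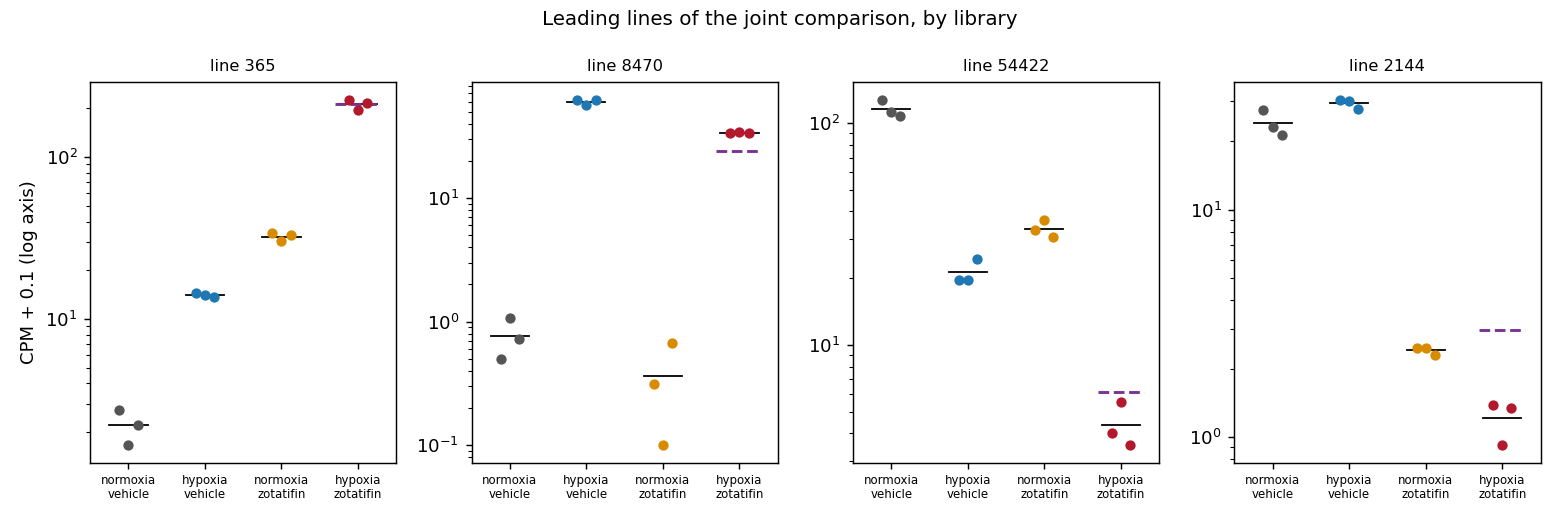
Level of the 4 numbered lines in each of the 12 libraries, as CPM plus 0.1 on a log axis. Points are libraries, black bars group means, and dashed bars the level that the sum of the single log2 changes gives for hypoxia plus zotatifin, for example 214 CPM for line 365 against a measured mean of 212 CPM.

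With the level raised to 100 CPM, 879 rises and 1152 falls met these limits, of the 4085 and 4996 that met them at 5 CPM. All tested lines at 100 CPM were not counted, so no share is given. The balance of rises and falls in abundant lines depended on scaling, as given above. The leading rise after line 365 went from 9.38, 6.95 and 5.60 CPM in vehicle cells to 147, 127 and 139 CPM with both treatments. It stood at 10.5, 8.88 and 9.36 CPM with hypoxia alone and at 53.9, 46.1 and 50.9 CPM with zotatifin alone. Hypoxia alone did not pass for this line (log2 fold change 0.40, edgeR adjusted p = 0.055), yet the joint change of 4.24 exceeded the sum of 3.19 (departure 1.05, SE 0.18, edgeR adjusted p = 0.000548). Another abundant rise showed the reverse order of treatments. It stood at 9.65, 10.6 and 9.20 CPM in vehicle cells, 222, 204 and 216 with hypoxia, 9.17, 10.3 and 10.8 with zotatifin and 113, 115 and 107 CPM with both. Zotatifin alone gave 0.04 on the log2 scale, while the joint change of 3.51 fell short of the sum of 4.49 (departure -0.98, SE 0.11, edgeR adjusted p = 5.13e-08).

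The 5 most abundant lines called in the joint comparison changed at most 2.39-fold. The first of them stood at 42421, 32212 and 33886 CPM in vehicle cells and at 26304, 23030 and 26318 CPM in the joint group (joint change -0.52 in log2, SE 0.14, edgeR adjusted p = 0.00905). The second went the other way, from 11313, 11437 and 11948 to 27156, 28131 and 27596 CPM, which was 1.26 on the log2 scale (SE 0.04). Its single groups lay between, at 14864 to 16517 CPM with hypoxia and 21244 to 22281 CPM with zotatifin, and the departure was -0.13 (95% interval -0.24 to -0.02, edgeR adjusted p = 0.0999). A further line of this kind rose with zotatifin alone (log2 fold change 0.74), while hypoxia alone gave -0.02 and did not pass. It stood at 3453, 3387 and 3394 CPM in vehicle cells, 3280 to 3393 with hypoxia, 5666 to 5705 with zotatifin and 6394 to 6593 CPM with both, above every other library (departure 0.21, SE 0.05, edgeR adjusted p = 0.00136).

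The single groups held intermediate shares of the counts in lines called in the joint comparison. Lines called higher in the joint comparison held 24.5% ± 0.96 of the tested counts in vehicle normoxia and 40.9% ± 0.41 in the joint group (SD, n = 3), values that the choice of lines fixes in direction. The libraries of the single treatments took no part in that contrast, though they entered the estimate of spread. In them the same lines held 29.9% ± 0.57 with hypoxia and 35.1% ± 0.87 with zotatifin. These shares are read against the libraries that chose the lines, so a place between the ends is partly built in. Lines called lower held 50.6% ± 0.51, 45.4% ± 0.63, 40.3% ± 0.16 and 34.0% ± 0.21 in the order vehicle, hypoxia, zotatifin and both. No library of one group overlapped another group in the share held by the higher lines. The choice of lines favours this.

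The second question was whether the joint change equalled the sum of the single changes. The test was the departure, which is the joint log2 change minus that sum. It passed in 3655 of the 17993 tested lines (20.3%), 12.1% above and 8.18% below the sum. Of the 11407 lines called in the joint comparison, 2890 departed and 8517 did not pass, or 74.7%. A departure that does not pass is not evidence of additivity, so the interval was used as well. In 6125 called lines (53.7%) the 95% interval of the departure lay within 1.5-fold in either direction, and 4894 of these had no called departure. In 3623 lines (31.8%) the departure did not pass and the interval was wider than 1.5-fold, so additive and non-additive responses could not be told apart at this depth. The joint and both single changes share the vehicle libraries, so no correlation between them is given.

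Departures came in 3 kinds. In 1293 lines the joint change was stronger than the sum and in the same direction (11.3% of those called in the joint comparison). In 1042 lines it was weaker (9.13%). In 555 lines it went against the sign of the sum (4.87%), here called turned. Most departures were small. They were under 1.5-fold in 1042 of the 1293 stronger lines, 771 of the 1042 weaker lines and 345 of the 555 turned lines, and reached 2-fold in 45, 70 and 48. In all, 163 lines (1.43% of those called in the joint comparison) departed at least 2-fold.

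**Figure D3:**
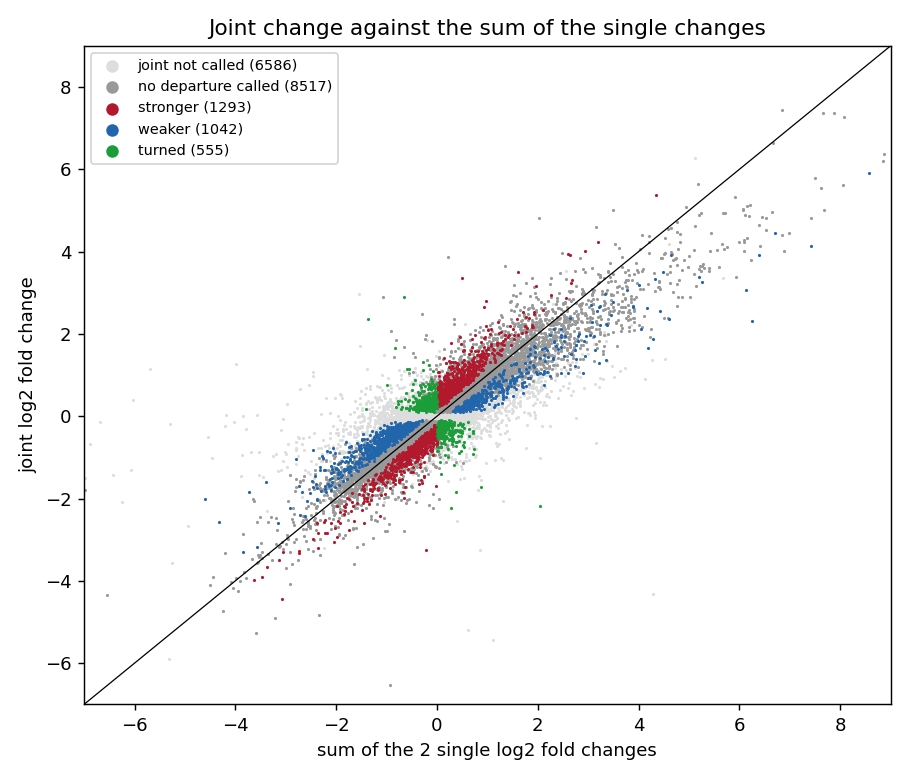
Joint log2 fold change (vertical axis) of each tested line against the sum of its 2 single log2 fold changes (horizontal axis), with the line of equality. Colours give the classes (1293 stronger, 1042 weaker, 555 turned, 8517 with no departure called), 30 lines lie outside the axes, and both axes share the vehicle libraries.

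Stronger lines rose in 691 cases and fell in 602, and weaker lines rose in 385 and fell in 657. These splits by direction depended on scaling. Under upper quartile scaling stronger lines split 581 to 693 and weaker lines 615 to 377, and without the 20 most abundant lines 478 to 862 and 569 to 386. The share of positive departures moved with them, from 59.8% under trimmed mean scaling to 43.3% and 38.8%. The class totals moved less, and 956 stronger, 762 weaker and 333 turned lines kept their class under upper quartile scaling. Turned lines split 341 to 214, and 262 to 325 and 225 to 344 under these scalings. The lean of a class to rises or falls thus depended on the scaling. The called departures of the stronger, weaker and turned lines described below kept their sign and passed in each alternative in which they were tested.

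The stronger rise with the largest departure rose with hypoxia alone (log2 fold change 0.83, edgeR adjusted p = 0.00118), while zotatifin alone gave -0.32 and did not pass. It stood at 1.98, 2.79 and 2.30 CPM in vehicle cells, 3.59, 3.45 and 5.63 with hypoxia, 1.93, 1.74 and 1.99 with zotatifin and 24.7, 25.3 and 22.4 CPM with both. The sum of the single changes would give 3.34 CPM. The departure was 2.85 (SE 0.27, edgeR adjusted p = 4.47e-09), and the 3 joint libraries lay above all 9 others. A more abundant stronger line went from 18.2, 26.7 and 23.2 CPM to 277, 271 and 224 CPM with both treatments, where the sum would give 69.5 CPM. Its single groups held 45.7 to 54.5 CPM with hypoxia and 30.0 to 33.6 CPM with zotatifin (departure 1.89, SE 0.20, edgeR adjusted p = 0.000128). Among stronger falls, after line 2144, a line at 15.1, 15.5 and 14.4 CPM in vehicle cells rose to 25.8, 23.3 and 27.8 with hypoxia and fell to 7.74, 6.52 and 7.06 with zotatifin. With both it stood at 4.64, 4.60 and 5.43 CPM, below every other library, where the sum would give 12.1 CPM (departure -1.32, SE 0.17, edgeR adjusted p = 1.17e-06).

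Over the stronger rises the median joint change was 0.79 and the median sum 0.36, with medians of -0.11 for hypoxia alone and 0.50 for zotatifin alone. Over the stronger falls the medians were -0.84 and -0.43, with -0.10 for hypoxia alone and -0.35 for zotatifin alone. These are medians of signed changes within classes that the joint change and the sum define, so they describe the lines and compare no sizes. Over all tested lines the median sizes were 0.28 for hypoxia alone, 0.37 for zotatifin alone and 0.50 for both.

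The weaker rise with the largest departure had large changes with each treatment alone. It stood at 2.31, 1.30 and 2.43 CPM in vehicle cells, 14.3, 13.0 and 14.5 with hypoxia, 23.4, 26.3 and 23.9 with zotatifin and 30.9, 30.6 and 30.1 CPM with both. The joint libraries were the highest but far under the 168 CPM that the sum gives (departure -2.47, SE 0.18, edgeR adjusted p = 3.38e-11). Line 365 had single changes of much the same size (2.74 and 3.93, against 2.78 and 3.60 here) and was additive within its interval. The next weaker rise went from 1.06, 1.43 and 1.49 CPM to 3.16, 2.58 and 2.57 CPM with both, below the 4.37, 5.26 and 6.49 CPM of hypoxia alone (departure -1.54, SE 0.36). Among weaker falls the leading line went from 9.71, 6.36 and 5.66 CPM to 1.61, 2.39 and 2.00 CPM with both, where the sum would give 0.55 CPM. Zotatifin alone gave 0.72, 1.37 and 1.73 CPM, which overlapped the joint libraries (departure 1.88, SE 0.39, edgeR adjusted p = 0.000627). The next weaker fall stood at 18.0, 11.8 and 13.4 CPM in vehicle cells, 3.58, 2.98 and 1.73 with zotatifin and 7.53, 7.30 and 5.91 CPM with both (departure 1.75, SE 0.28).

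Over the weaker rises the single changes had medians of 0.53 for hypoxia and 0.54 for zotatifin, with a median sum of 1.07 and a median joint change of 0.57. Over the weaker falls the medians were -0.44, -0.53, -0.96 and -0.51 in the same order. The choice of these lines fixes a joint change short of the sum, so the medians are a description.

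In turned lines the sum was mostly near 0, with medians of -0.17 over the 341 rises and 0.15 over the 214 falls, and its sign was not itself tested. The leading turned rise was low in 9 libraries, at 0.93 to 2.72 CPM, against 14.6, 13.9 and 11.8 CPM in the joint group. Neither single change passed (log2 fold changes -0.01 and -0.66, edgeR adjusted p = 0.988 and 0.0792), and the departure was 3.57 (SE 0.40, edgeR adjusted p = 2.51e-07). The leading turned fall stood at 3.04, 2.73 and 2.74 CPM in vehicle cells, rose to 6.24, 5.17 and 5.54 CPM with hypoxia while zotatifin alone gave 2.36, 3.10 and 2.38 CPM. With both treatments it fell to 0.81, 0.76 and 1.05 CPM, below all other libraries (joint log2 fold change -1.72, departure -2.60, SE 0.35, edgeR adjusted p = 2.21e-06). A further turned fall rose with hypoxia from 2.51, 2.47 and 2.55 to 6.01, 6.80 and 6.40 CPM while both treatments together gave 1.48, 1.51 and 1.33 CPM (departure -1.51, SE 0.35). A turned rise did the opposite, from 5.42, 3.38 and 4.17 CPM to 2.34, 1.99 and 2.29 with hypoxia and 7.46, 6.36 and 8.29 CPM with both (departure 1.75, SE 0.29).

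Additive lines included large changes in both directions. After line 365, the leading additive rise went from 14.1, 14.7 and 15.1 CPM to 186, 177 and 181 CPM, where the sum gives 187 CPM. Its groups rose in steps, at 37.8, 36.4 and 31.2 CPM with hypoxia and 79.8, 77.6 and 76.2 CPM with zotatifin (departure -0.05, 95% interval -0.23 to 0.14). An additive fall went from 384, 347 and 344 CPM to 21.2, 19.8 and 18.5 CPM, where the sum gives 21.8 CPM. Its single groups held 72.1 to 77.5 CPM with hypoxia and 92.1 to 113 CPM with zotatifin (departure -0.13, 95% interval -0.33 to 0.08).

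**Figure D4:**
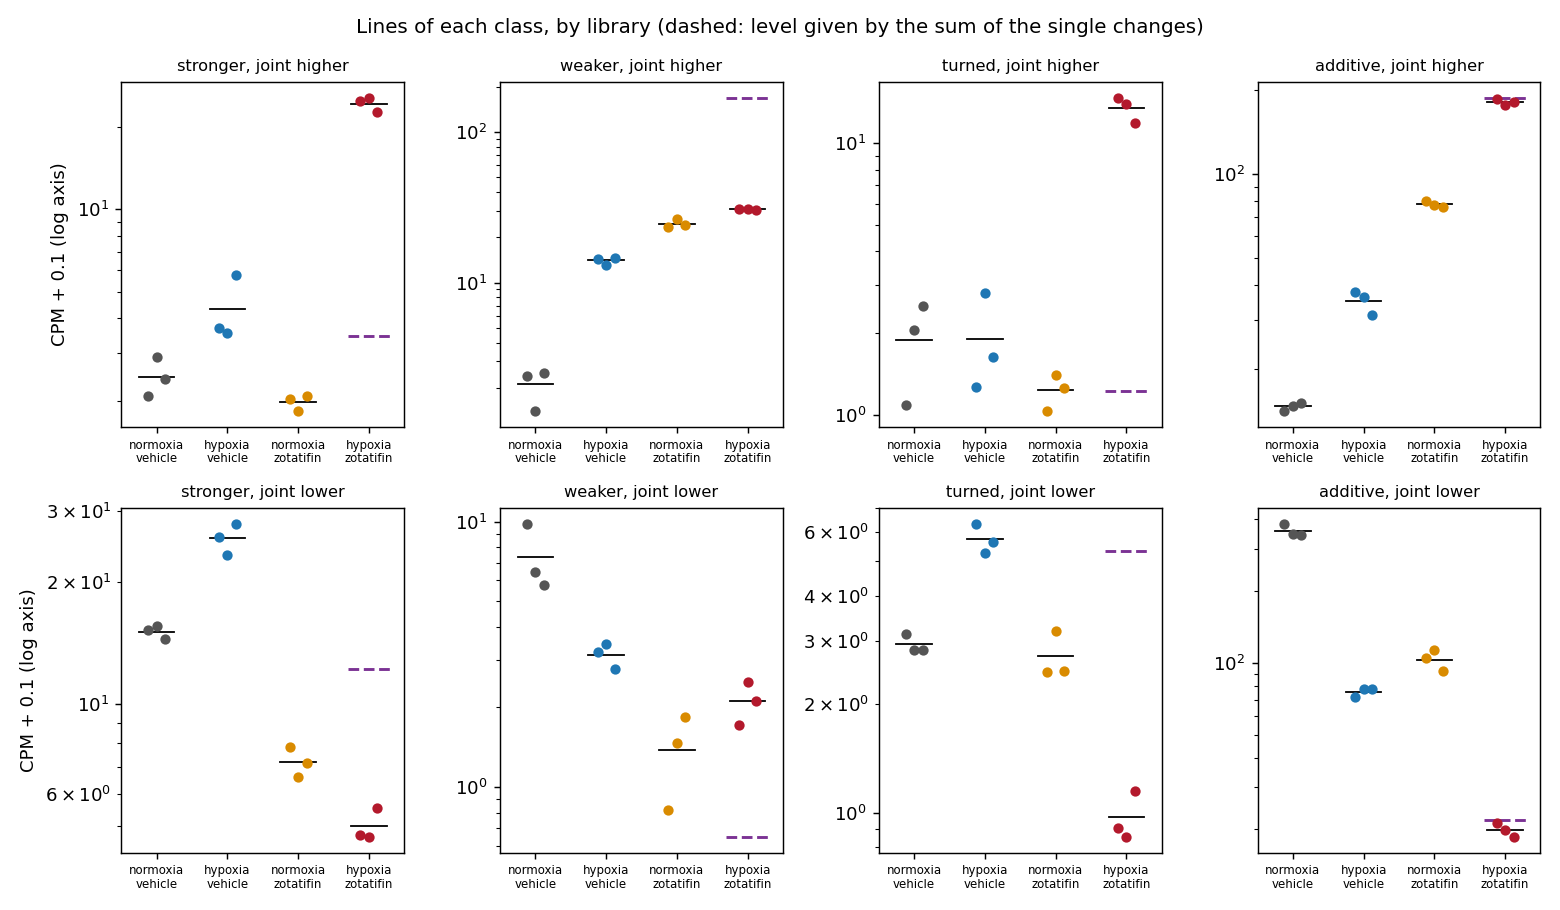
Level of 8 lines, 1 rise and 1 fall of each class, in the 12 libraries, as CPM plus 0.1 on log axes. Points are libraries, black bars group means and dashed bars the level that the sum of the single log2 changes gives, for example 168 CPM against a measured 30.5 CPM for the weaker rise.

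Depth decided where the sum could be tested. Under 1 CPM the median SE of the departure was 0.77 and 1.76% of lines departed, and 0.256% of the called lines were additive within 1.5-fold. From 4 to 16 CPM the median SE was 0.21, 13.1% of lines departed and 31.2% of the called lines were additive within 1.5-fold. From 16 to 64 CPM the median SE was 0.12, 29.2% of lines departed and 73.3% of the called lines were additive within 1.5-fold. At 256 CPM or more the median SE was 0.06, 52.5% departed and 85% were additive within 1.5-fold. Both shares were thus larger in abundant lines, where small departures passed and intervals were narrow. The 3623 undecided lines had a median of 4.61 CPM in their highest group, against 59.3 CPM for the additive lines.

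The third question was which single treatment lay further in the direction of the joint change. It was read from hypoxia alone against zotatifin alone, a contrast that shares no library with the joint one. Over all tested lines these differed in 56.9%, with 27.8% higher under hypoxia alone and 29.1% higher under zotatifin alone (edgeR, adjusted p under 0.05). Of the 5620 joint rises, zotatifin alone was the higher in 2819 (50.2%) and hypoxia alone in 1033 (18.4%), and 1768 did not pass. Of the 5787 joint falls, zotatifin alone was the lower in 2662 (46%) and hypoxia alone in 1044 (18%). The drug alone thus lay further in the joint direction in more lines than low oxygen alone, among rises and among falls. Among rises of at least 2-fold the balance was 767 to 498 of 2085 lines, and among falls of at least 2-fold it was 894 to 142 of 1546. Whether rises and falls differed in this balance was not tested.

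**Figure D5:**
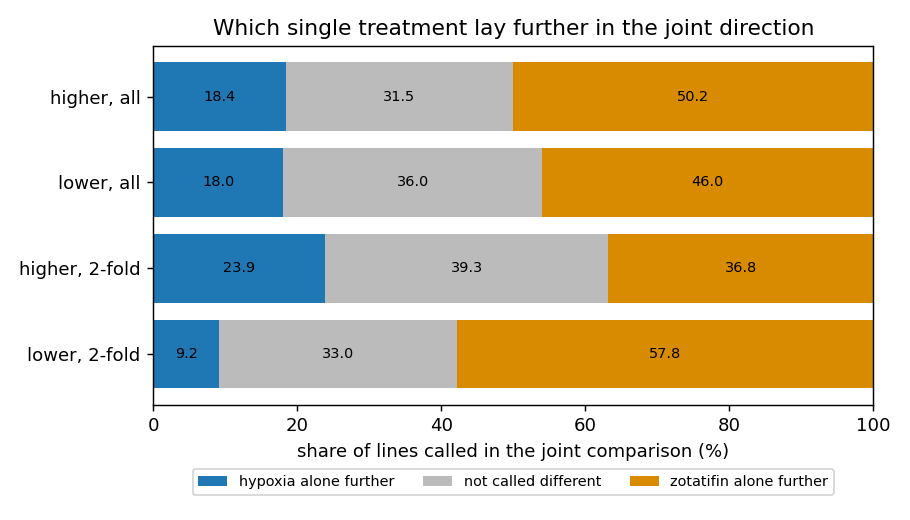
Share of lines called in the joint comparison (horizontal axis, %) in which hypoxia alone (blue) or zotatifin alone (orange) lay further in the joint direction, or in which they were not called different (grey). Bars give all joint rises and falls and those of at least 2-fold, where orange covers 36.8% of rises and 57.8% of falls and blue 23.9% and 9.18%.

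The joint group was often outside the range of all other groups. Its 3 libraries lay above all 9 others in 2182 tested lines (12.1%) and below them in 2469 (13.7%). Among joint rises of at least 2-fold this held in 959 of 2085 lines, and among falls of at least 2-fold in 914 of 1546. The choice of lines by their joint change favours this, so these counts are a description. By means, the joint group was beyond both single treatments in 3876 of the 5620 rises (69%) and 4227 of the 5787 falls (73%). The choice of called lines favours this too, and the same shares were not taken over all tested lines. In the remaining 1744 rises and 1560 falls at least 1 single treatment was as far or further. Counted separately, and with some lines in both counts, this was zotatifin alone in 1105 rises and 1010 falls and hypoxia alone in 704 and 620.

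The opposite case was a line in which the single treatments differed and the joint group was at the vehicle level. This class was chosen after the data were seen. Hypoxia alone and zotatifin alone differed at least 2-fold in 2459 lines (13.7%). In 202 of these (8.21%) the 95% interval of the joint change lay within 1.5-fold of no change, 101 with hypoxia alone higher and 101 with zotatifin alone higher. Over all tested lines that share was larger, 31.7%, so the case was infrequent among lines in which the single treatments differed. One such line stood at 4.10, 5.52 and 4.42 CPM in vehicle cells and 4.10, 5.16 and 4.58 CPM with both, with 10.1, 9.88 and 10.9 CPM under hypoxia and 3.08, 2.11 and 2.12 CPM under zotatifin. Its hypoxia libraries were all above and its zotatifin libraries all below the other 6, and its joint change was -0.02 (SE 0.18). Another had the opposite signs, at 33.8, 39.6 and 41.7 CPM in vehicle cells and 34.8, 33.6 and 37.1 CPM with both. Hypoxia alone gave 16.5, 14.1 and 12.3 CPM and zotatifin alone 64.1, 68.0 and 74.2 CPM. Of the 202 lines 63 (31.2%) also departed from the sum, against 20.3% of all tested lines. The share that departs grows with abundance, and the difference between these shares was not tested. In the 63 lines the return to the vehicle level was not the sum of the single changes.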

How the data were processed

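The authors deposited estimated counts per line of 1 table, with 12 columns. Per the submitters' processing notes, Salmon, DESeq, DESeq2 and the build hg38 were used, with no versions, roles or order. No annotation is named there. Among values above 0, 33.2% differed from a whole number by more than 0.0005. Estimated counts split reads shared by similar transcripts, so near-identical copies are uncertain.

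Counts were rounded and filtered with filterByExpr by group (minimum count 10, minimum total 15), which kept 99.8% of counts, and scaled by trimmed means of M values (TMM). edgeR 4.0.16 (R 4.3.3, quasi-likelihood, robust, two-sided) fitted 1 mean per group over all 12 libraries, with 8 residual degrees of freedom. Standard errors came from the F statistics. The scripts were tested on simulated data. The titles call the replicates biological and the protocol seeded them as triplicates in a 6-well plate, so p-values measure the spread between these samples. Intervals on counts cover counting error only.

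The members and rules were chosen with earlier results of these data known. Lines picked by their joint change had to be called, reach 5 CPM in the higher group and not overlap. Lines picked by their departure had to be called in the joint and the departure test, and their libraries could overlap. The 10 largest rises and falls were taken, the 5 largest from 100 CPM, and the 2 with the largest departure per class and direction with 5 CPM in some group, or the 2 largest additive changes. The 5 most abundant called lines and the lines at the vehicle level were chosen after their values were seen. Alternatives were other scalings, filters, margins and tools (DESeq2 1.42.0, limma-voom 3.58.1), a replicate block, libraries left out and a sum of CPM.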

Additional observations from a re-analysis of the deposited data

Results flagged for a closer look

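The effect of zotatifin in hypoxia differed from that in normoxia, by the test of the difference itself, in 3655 lines (edgeR, adjusted p under 0.05), and this difference is the departure of the joint change from the sum. The leading lines of the classes were picked out for the same reason: the turned rise with a departure of 3.57, the stronger rise with 2.85, the turned fall with -2.60 and the weaker rise with -2.47 on the log2 scale. Outside the tested lines, scarce lines held 0.242% of the counts in the joint group against 0.125% in vehicle normoxia, with no overlap between the 3 and 3 libraries. The share was 0.244% with hypoxia alone and 0.126% with zotatifin alone, so it was not particular to the joint group. No group has 4 or more libraries, so single libraries were not tested for standing apart.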

How the results depend on the processing

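The joint comparison called 9484 to 12058 lines over 22 alternatives, and no line called in it was called in the opposite direction in any refit of all groups. Departure calls numbered 2932 to 4004, stronger lines 1048 to 1410, weaker lines 754 to 1379 and turned lines 460 to 596. Same-numbered libraries did not deviate together (r of -0.08 to 0.04 over 18 pairs), so the numbers do not pair them, and the replicate block gave 11403 joint calls and 3797 departures. The additive count depended on the margin: 2204 lines at the narrower margin tried and 8944 at 2-fold, against 6125 at 1.5-fold. Without the 20 most abundant lines 38.8% of departures were positive, and without normoxia zotatifin replicate 1 45%, against 59.8%. With the sum taken in CPM and not in log2, stronger lines split 940 higher to 348 lower and weaker lines 395 to 984. That scale sets a lower expected level where both single changes have the same sign, and a higher one where their signs differ. For 190 of the 5787 falls the expected level lay below 0 CPM. On both scales 933 stronger, 907 weaker and 492 turned lines kept their class. Upper quartile scaling moved the share of higher joint calls from 49.3% to 55.5%. The joint change of 1 very abundant line, the third most abundant called, did not pass without normoxia vehicle replicate 1 (-0.22, adjusted p = 0.0601), and 1 departure of a line at the vehicle level did not pass in 5 alternatives (0.32 to 0.40). Depth limits the test of the sum most under 4 CPM, and also from 4 to 16 CPM.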
